A study of Homo sapiens with 4 samples.

Results

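The 10 genes described here encode surface proteins by which plasma cells and myeloma cells are recognised or treated: SDC1, CD38, TNFRSF17, TNFRSF13B, SLAMF7, LY9, CD27, CD28, CD79A and FCRL5. They were taken by name from 18377 genes that the arrays measured with a probe set assigned to exactly 1 gene, and each had 1 such probe set. The cells were OPM2, an established human multiple myeloma line grown in serum-containing medium, so all values come from 1 cell line. In 2 cultures the cells received VS-5584 (SB2343), a compound that blocks both mTOR and the class I PI3 kinases, at 123 nM per the sample labels and 125 nM per the design text. In 2 control cultures they received the solvent DMSO. All 4 were harvested at 24 h, and RNA of each was measured on 1 one-colour array. The titles name biological replicates, but how far the cultures were kept apart is not described, so p-values measure the spread between these samples, which may be technical.

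Plasma cells carry few of the B cell's surface proteins and display a set of their own. Syndecan 1 and CD38 identify them in the clinic, and receptors of the TNF family pass on survival signals from the ligands APRIL and BAFF in the bone marrow. Antibodies, bispecific antibodies or engineered T cells directed at CD38, SLAMF7, TNFRSF17 (BCMA) and FCRL5 are used or tested in myeloma. The amount of such a protein on the cell sets how much of it a drug can bind. PI3 kinase and mTOR relay many of the growth signals that cells receive. The arrays measure RNA averaged over a culture, so more RNA per cell and more cells with the RNA cannot be told apart.

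None of the 10 genes differed past the threshold after VS-5584. Of the 7 that were bright enough to be tested (SDC1, CD38, TNFRSF17, TNFRSF13B, SLAMF7, LY9 and CD28), 0 had a limma adjusted p under 0.05, as did 0 of all 11027 tested genes (0%). An ordinary test without limma's moderation also called 0 members and 0 of all tested genes. At an unadjusted p under 0.05, limma counted 1 member, LY9, which was higher, and 0 lower members, against 1.49% of all tested genes higher and 8.93% lower. The ordinary test counted 0 members at that level, and 492 of all 11027 tested genes. The 3 others, CD27, CD79A and FCRL5, lay among the 40% of genes with the lowest mean signal (below an intensity of 48.9) and were left out of the test. An exact permutation test of 2 arrays against 2 cannot give a two-sided p below 0.333, so none is given for single genes.

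The members' differences lay between those of LY9, 1.29-fold higher in VS-5584 cultures, and SDC1, 1.10-fold lower. Their median log2 difference was 0.12 over the 7 tested, with 5 of 7 higher, while the median of all 11027 tested genes was -0.06, with 4110 higher. The arrays of the 2 groups did not overlap for 3 of the 7 members: SLAMF7 and LY9 were higher and SDC1 was lower on both VS-5584 arrays than on both controls. Among all tested genes the groups did not overlap for 43.9%, with 14.7% higher and 29.2% lower. VS-5584 replicate 2 stood apart from the other 3 arrays, with a log2 quartile range of 1.74, against 1.94 on VS-5584 replicate 1 and 1.95 and 1.93 on the controls. Its probe sets were squeezed together, and relative to the control mean its median tested gene lay at -0.14, against -0.0022 on VS-5584 replicate 1. VS-5584 replicate 1 lay closer to both controls than to VS-5584 replicate 2. The SD of its log2 differences over tested genes was 0.16 and 0.20 from control replicates 1 and 2. It was 0.25 from VS-5584 replicate 2, and 0.17 between the controls. The members' median was 0.20 on VS-5584 replicate 1 and 0.21 on VS-5584 replicate 2. The middle gene was not the same on both arrays, being CD38 on replicate 1 and TNFRSF17 on replicate 2. CD38 lay at -0.21 on replicate 2, and TNFRSF13B went from -0.02 on replicate 1 to 0.25 on replicate 2. On VS-5584 replicate 1 alone, 5 of 7 members were above both controls and 1 was below, where 33.3% of all tested genes were above and 34.6% below (67.9% in all). On VS-5584 replicate 2 alone, 3 of 7 were above and 2 below, where 25.3% of all were above and 60.1% below (85.4% in all).

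**Figure D1:**
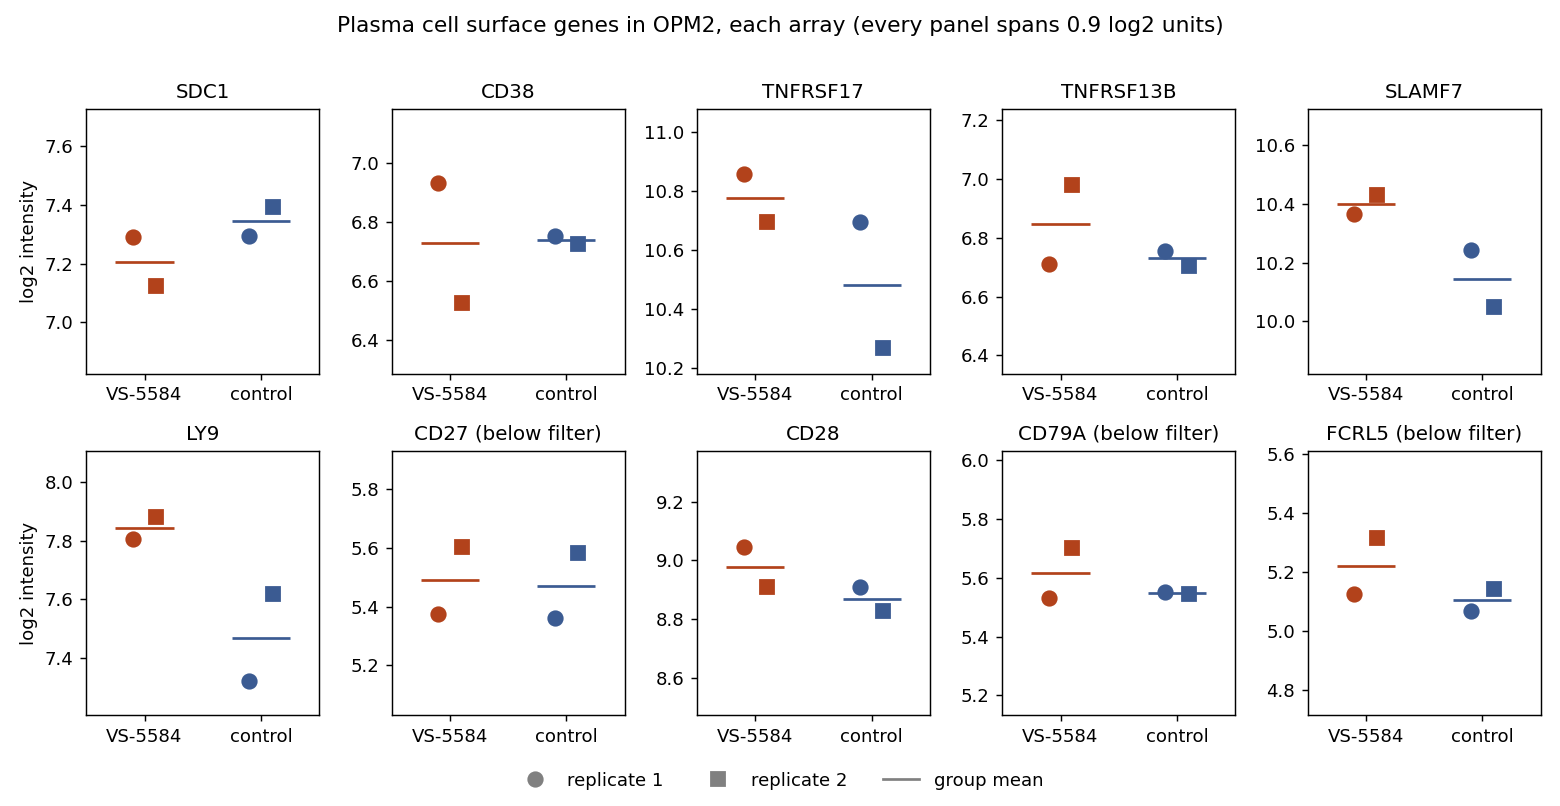
Log2 intensity (vertical axis) of each of the 10 genes on each array, with VS-5584 cultures left and DMSO controls right, circles for replicate 1, squares for replicate 2 and a bar for the group mean. Every panel spans the same number of log2 units around its own level. Both VS-5584 arrays lie above both controls for SLAMF7 and LY9 and just below them for SDC1, and in the other panels the groups overlap.

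TNFRSF17 and TNFRSF13B encode BCMA and TACI, the paired receptors for APRIL and BAFF. BCMA is needed by long-lived plasma cells and is the target of engineered T cells, bispecific antibodies and antibody-drug conjugates in myeloma. TNFRSF17 had intensities of 1857 and 1656 in VS-5584 cultures, against 1659 and 1233 in controls. The groups overlapped, since VS-5584 replicate 2 and control replicate 1 had nearly the same value. The controls themselves differed by -0.43 on the log2 scale (replicate 2 minus replicate 1), more than the 0.29 ± 0.17 (SE) between the groups. In log2 intensity TNFRSF17 averaged 10.78 ± 0.12 in VS-5584 cultures and 10.48 ± 0.30 in controls (SD, n = 2 each). The 95% interval of the difference ran from a 1.06-fold lower to a 1.59-fold higher level (limma adjusted p = 0.558). Without control replicate 1 the log2 difference was 0.51, and without control replicate 2 it was 0.08.

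TNFRSF13B, which in B cells also restrains the response to BAFF, had intensities of 105 and 126 in VS-5584 cultures, against 108 and 104 in controls. VS-5584 replicate 2 was high and the other 3 arrays were nearly equal. The log2 difference was 0.12 ± 0.14 (SE), with limma adjusted p = 0.782 and a 95% interval from -0.21 to 0.44. Without VS-5584 replicate 2 its sign turned, to -0.02, and without VS-5584 replicate 1 it was 0.25.

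Around these receptors, the list of BAFF and APRIL ligands, receptors and TRAF adaptors had 7 tested genes of 10 measured, of which 0 passed the limma threshold in either direction. Its median log2 difference was 0.05, against -0.06 over all tested genes. The receptor for BAFF alone, TNFRSF13C, named after its values were seen, had intensities of 66.2 and 66.5 in VS-5584 cultures, against 69.4 and 59.0 in controls. TRAF3, which holds the noncanonical NF-kB pathway in check below these receptors, differed by -0.39 ± 0.21 (SE), with 115 and 72.5 in VS-5584 cultures, against 109 and 132 in controls. VS-5584 replicate 2 was low, and VS-5584 replicate 1 lay between the controls. NFKB2, the precursor that this pathway processes, differed by 0.17 ± 0.14 and the groups did not overlap. Gamma-secretase cuts BCMA from the cell surface, and of its 4 tested subunits 0 passed, with a median of -0.02. PSEN2, one of its catalytic subunits, had 202 and 109 in VS-5584 cultures, against 184 and 197 in controls, again low on VS-5584 replicate 2 alone. NCSTN, the subunit that receives the substrate, differed by 0.12 ± 0.16 (SE).

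SLAMF7 and LY9 belong to the SLAM family, receptors that mostly bind their own kind on neighbouring cells. SLAMF7 is the target of the antibody elotuzumab and LY9, also called CD229, is displayed by myeloma cells as well. SLAMF7 had intensities of 1319 and 1380 in VS-5584 cultures, against 1212 and 1059 in controls. Both VS-5584 arrays were above both controls, and the gap between the nearest pair was smaller than that between the controls. In log2 intensity it averaged 10.40 ± 0.05 in VS-5584 cultures and 10.15 ± 0.14 in controls (SD, n = 2 each). The fold was 1.19, with a 95% interval from 0.962 to 1.47 (limma adjusted p = 0.551). Without control replicate 2 the log2 difference was 0.15, against 0.25 with all arrays.

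LY9 had the largest difference of the 10 members, with intensities of 224 and 236 in VS-5584 cultures, against 160.0 and 196 in controls. The VS-5584 arrays lay close together and above both controls. The controls lay 0.30 apart on the log2 scale, more than the gap between the nearest VS-5584 and control arrays. It averaged 7.84 ± 0.05 in VS-5584 cultures and 7.47 ± 0.21 in controls (log2, SD, n = 2 each), a difference of 0.37 ± 0.15 (SE). The unadjusted p was 0.0305 and the limma adjusted p was 0.440, with a 95% interval from 1.03-fold to 1.63-fold higher. Among tested genes 0.998% had a more positive difference than LY9, 2.17% more than TNFRSF17 and 3.39% more than SLAMF7. Without control replicate 1 the log2 difference of LY9 was 0.22, and the unadjusted p was 0.370.

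**Figure D2:**
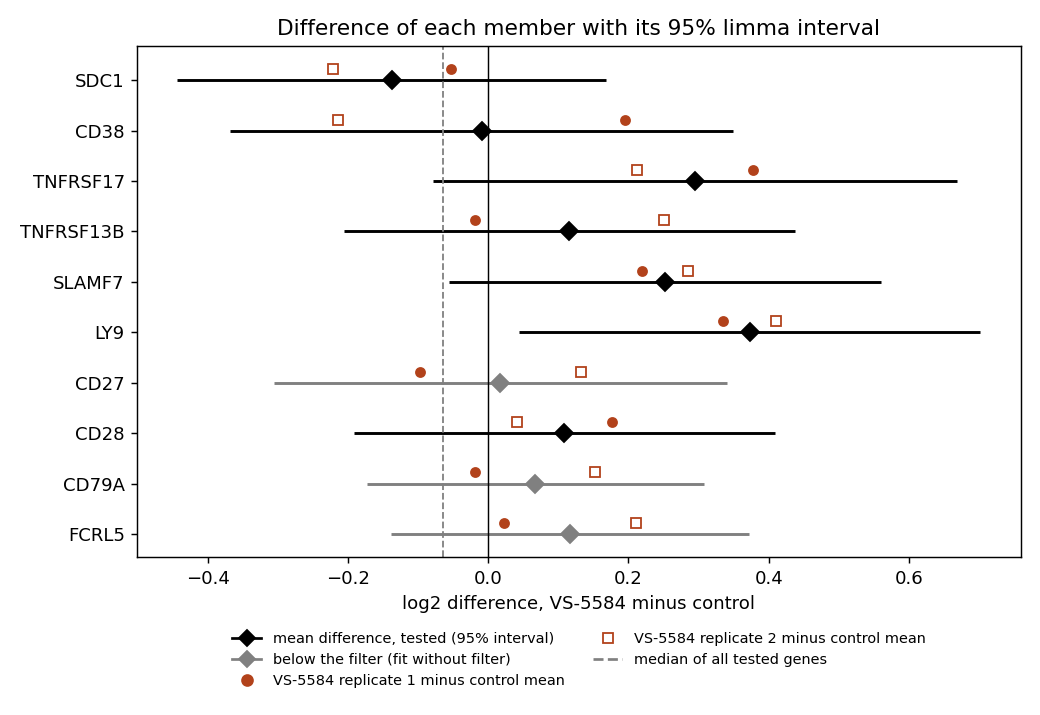
Log2 difference of each member (horizontal axis), VS-5584 minus control, as a diamond with its 95% limma interval, and above it each VS-5584 array minus the control mean (circle, replicate 1, and open square, replicate 2). Grey diamonds are members below the filter. The interval of LY9 runs from 0.04 to 0.70, and those of the other members include 0.

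SLAMF7 and LY9 lie side by side in a run of SLAM genes on chromosome 1, in the RefSeq order SLAMF6, CD84, SLAMF1, CD48, SLAMF7, LY9 and CD244. CD48, which precedes them and encodes a ligand of the natural killer cell receptor CD244, had intensities of 3068 and 3057 in VS-5584 cultures, against 2634 and 2611 in controls. Its arrays were nearly equal within each group, and the groups did not overlap. Among all tested genes 14.7% were likewise higher without overlap. The log2 difference of CD48 was 0.22 ± 0.13 (SE), with limma adjusted p = 0.563. SLAMF1, on the other side of CD48 and named after its values were seen, had 51.5 and 47.7 in VS-5584 cultures, against 53.4 and 51.3 in controls. Its log2 difference was -0.08, and its groups overlapped. SLAMF6, CD84 and CD244 were below the filter. In the list of the other SLAM genes and their adaptors, 0 of 3 tested genes passed the threshold, and the median was -0.08. FYN, a Src-family kinase of SLAM signalling, differed by -0.11 ± 0.15 (SE). The adaptor genes SH2D1A and SH2D1B, through which SLAM receptors signal in T and natural killer cells, were below the filter.

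**Figure D3:**
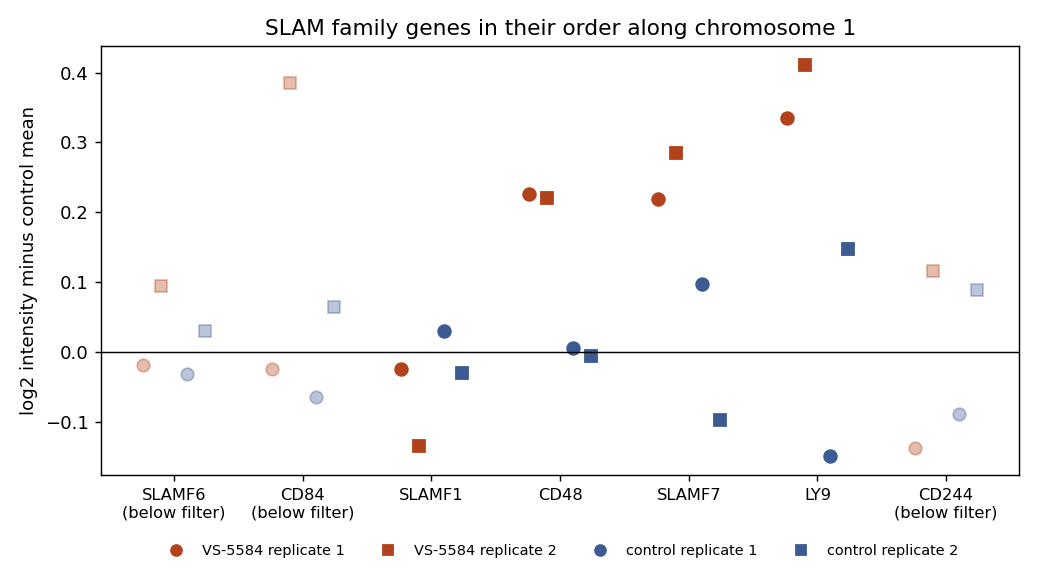
Log2 intensity minus the control mean (vertical axis) on each array for 7 SLAM family genes in their order along the chromosome. VS-5584 arrays are red and left, controls blue and right, circles replicate 1 and squares replicate 2, with pale points for genes below the filter. At CD48, SLAMF7 and LY9 both red points lie above both blue ones.

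SDC1 encodes syndecan 1, or CD138, a cell surface proteoglycan whose heparan sulfate chains hold growth factors and APRIL. It was the one tested member below its controls on both VS-5584 arrays. RefSeq promoter windows (assembly GRCh38.p14, each spanning the start site) were matched for 7 of the 10 members, TNFRSF17, SLAMF7 and LY9 not being among them. Searched on both strands were FOXO (GTAAACA), an E-box (CACGTG), a STAT site (TTCNNNGAA), the octamer (ATGCAAAT), the TATA box (TATAAA), the GC box (GGGCGG), and by name ISRE and EICE, whose letters can overlap. The SDC1 window is shown because it is the CpG-rich exception, with a GC content of 70.7% and 23 CpG pairs, and 3 to 9 CpG pairs in the other 6 windows. The observed over expected CpG ratio was 0.68 in SDC1, against a median of 0.579 over all 35116 windows, and 0.134 to 0.521 in the other 6. Capitals mark its GC box, found in 45% of all windows.
SDC1, chr2:20225081-20225380, minus strand: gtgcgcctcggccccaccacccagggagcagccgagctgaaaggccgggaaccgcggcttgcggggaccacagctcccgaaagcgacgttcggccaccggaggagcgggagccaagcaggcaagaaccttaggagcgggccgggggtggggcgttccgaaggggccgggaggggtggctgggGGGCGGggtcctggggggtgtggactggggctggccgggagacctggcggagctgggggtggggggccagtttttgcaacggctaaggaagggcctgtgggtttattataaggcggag

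SDC1 had intensities of 156.6 and 139 in VS-5584 cultures, against 157.0 and 168 in controls. VS-5584 replicate 1 was all but equal to control replicate 1, so the absence of overlap rested on a log2 gap of -0.0040. The group means were 7.21 ± 0.12 in VS-5584 cultures and 7.34 ± 0.07 in controls (log2, SD, n = 2 each), a difference of -0.14 ± 0.14 (SE). The 95% interval ran from -0.44 to 0.17 (limma adjusted p = 0.729). After cyclic loess, which evens out the squeezed array, the difference was -0.01. It was -0.22 without VS-5584 replicate 1, -0.05 without VS-5584 replicate 2 and -0.09 without control replicate 2. In the list of other syndecans, heparan sulfate enzymes and sheddases, 0 of 18 tested genes passed in either direction, and the median was -0.001. EXTL2, a glycosyltransferase related to those that start the chains, differed by -0.27 ± 0.13 (SE). ADAM17, a sheddase, had 248 and 170 in VS-5584 cultures, against 251 and 269 in controls, a log2 difference of -0.34 ± 0.18. SDC2, another syndecan, was also lower without overlap, at 173 and 190.4 in VS-5584 cultures, against 197 and 228 in controls, and was named after its values were seen.

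CD38 is an ectoenzyme that consumes NAD, and it is the target of daratumumab and isatuximab. CD28, best known as the costimulatory receptor of T cells, is carried by many myeloma cells and recruits PI3 kinase to its tail. Their promoter windows are shown because these were the 2 of 7 members with an EICE match, the composite letters at which IRF4 and its ETS partners bind in B-lineage cells, found in 2.82% of all windows. The match, in capitals, starts 43 bases before the start site in CD38 and 14 bases before it in CD28, where it lies on the other strand.
CD38, chr4:15778078-15778377, plus strand: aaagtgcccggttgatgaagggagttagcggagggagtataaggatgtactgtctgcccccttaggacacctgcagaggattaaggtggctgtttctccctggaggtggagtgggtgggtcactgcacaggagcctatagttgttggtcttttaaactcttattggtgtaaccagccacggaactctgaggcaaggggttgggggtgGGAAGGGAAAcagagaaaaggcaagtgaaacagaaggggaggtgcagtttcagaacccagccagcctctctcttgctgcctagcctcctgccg
CD28, chr2:203706389-203706688, plus strand: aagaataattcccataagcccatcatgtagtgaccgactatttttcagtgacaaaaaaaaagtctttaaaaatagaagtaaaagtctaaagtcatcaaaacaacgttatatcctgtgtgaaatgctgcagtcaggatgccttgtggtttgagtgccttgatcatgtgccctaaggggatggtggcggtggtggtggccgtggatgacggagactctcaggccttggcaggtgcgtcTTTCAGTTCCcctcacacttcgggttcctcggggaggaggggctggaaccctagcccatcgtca
The FOXO, E-box, STAT, octamer, ISRE and TATA letters were in none of the 7 windows, and in 3.42%, 7.26%, 7.66%, 1.77%, 3.57% and 11.5% of all windows, in that order. The GC box letters were in SDC1 and TNFRSF13B. Matches are letters in a window, not shown sites of binding.

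CD38 had intensities of 122 and 92.1 in VS-5584 cultures, against 108 and 106 in controls. One VS-5584 array lay above both controls and the other below both, while the controls were nearly equal. The means were 6.73 ± 0.29 in VS-5584 cultures and 6.74 ± 0.02 in controls (log2, SD, n = 2 each), a difference of -0.01 ± 0.16 (SE). The sign was positive after cyclic loess and after quantile normalization. The 95% interval ran from 0.775 to 1.27 as a fold (limma adjusted p = 0.989). CD28 had intensities of 528 and 481.2 in VS-5584 cultures, against 481.4 and 454 in controls. VS-5584 replicate 2 fell short of control replicate 1 by a small margin, so the groups overlapped. The log2 difference of CD28 was 0.11 ± 0.13 (SE), with a 95% interval from -0.19 to 0.41 (limma adjusted p = 0.780). After cyclic loess it was 0.24. It was 0.042 without VS-5584 replicate 1, 0.18 without VS-5584 replicate 2 and 0.067 without control replicate 2.

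In the list of genes that handle NAD and adenosine around CD38, 0 of 9 tested genes passed the limma threshold, 8 of 9 were lower on average and the median was -0.13. Of all 11027 tested genes 6917 were lower. The list's median was -0.03 on VS-5584 replicate 1 and -0.31 on the squeezed VS-5584 replicate 2, and -0.02 after cyclic loess. ADA, the adenosine deaminase, had 318 and 243 in VS-5584 cultures, against 391 and 430.1 in controls, without overlap, a log2 difference of -0.56 ± 0.16 (SE, limma adjusted p = 0.322). NT5E, or CD73, which makes adenosine at the cell surface, had 61.5 and 48.8 in VS-5584 cultures, against 46.0 and 41.8 in controls. PECAM1, a ligand of CD38, had 86.2 and 57.9 in VS-5584 cultures, against 91.2 and 80.8 in controls, with overlap, and was named after its values were seen. BST1, the neighbour and relative of CD38, was below the filter. In the list of ligands and relatives of CD27 and CD28, 0 of 3 tested genes passed, with a median of -0.14. GRB2, an adaptor that binds the CD28 tail, differed by -0.31 ± 0.17 and SIVA1, a binding partner of CD27, by -0.14 ± 0.15 (SE). The ligand genes CD80, CD86 and CD70 were all below the filter.

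**Figure D4:**
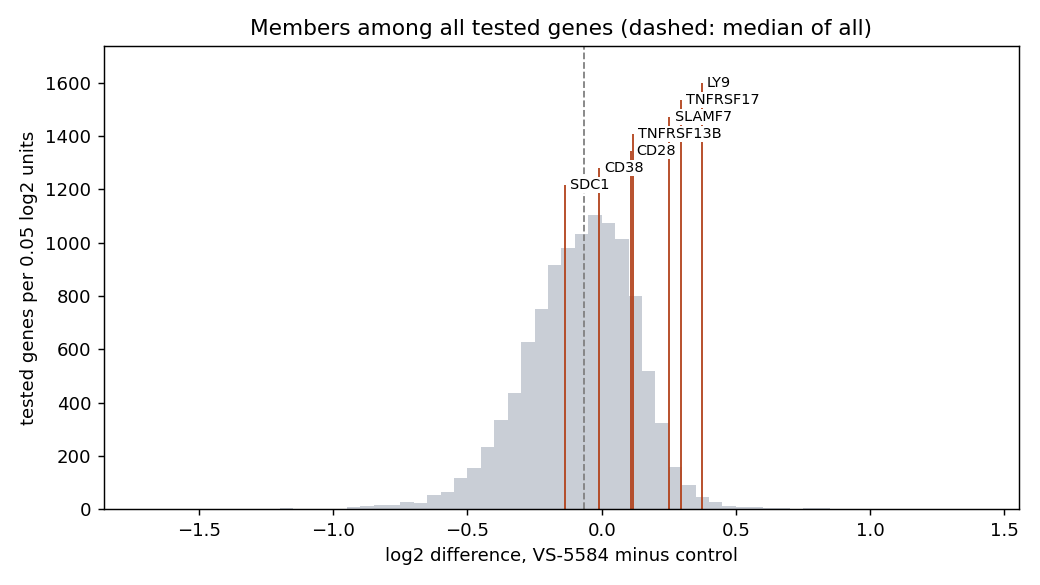
Number of tested genes (vertical axis) per bin of log2 difference, VS-5584 minus control (horizontal axis), with the 7 tested members marked by red lines and the median of all genes dashed. LY9, TNFRSF17 and SLAMF7 lie in the right tail, and SDC1 lies left of the median.

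CD27, CD79A and FCRL5 were dim on all 4 arrays, and their values near the low end of the scale leave a change in them hard to see. CD27, a TNF family receptor that normal plasma cells carry and myeloma cells often lose, had intensities of 41.5 and 48.6 in VS-5584 cultures, against 41.1 and 47.9 in controls. In both groups replicate 2 was the higher, and the values of the groups nearly coincided. CD79A, the signalling chain of the B cell receptor, had 46.2 and 52.0 in VS-5584 cultures, against 46.9 and 46.7 in controls. FCRL5, which binds IgG and is the target of the bispecific antibody cevostamab, had 34.9 and 39.8 in VS-5584 cultures, against 33.5 and 35.3 in controls. VS-5584 replicate 2 was the highest array for all 3 genes. The lower quartile of all probe sets was also highest on that array, at 31.9, against 30.0 on VS-5584 replicate 1 and 29.9 and 31.0 on controls, and its part in these values was not tested. With no filter on dim genes, the log2 differences of CD27, CD79A and FCRL5 were 0.02, 0.07 and 0.12, with limma adjusted p of 0.987, 0.888 and 0.790.

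Their relatives were mostly dim too. Of 7 other Fc receptor-like genes 1 was tested, FCRLB, which differed by 0.01 ± 0.15 (SE). Of 18 other B cell receptor and surface genes, 7 were tested and 0 passed, with a median of -0.03. CD79B, the partner chain of CD79A, had 54.9 and 56.9 in VS-5584 cultures, against 57.0 and 57.1 in controls, and was named after its values were seen. LYN, a kinase of the B cell receptor, differed by -0.31 ± 0.18 and CD52, a surface glycoprotein and antibody target, by 0.19 ± 0.17 (SE).

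The plasma cell label was also checked against markers beyond the 10 members. All 8 plasma cell markers on a list without the 10 members (PRDM1, IRF4, XBP1, MZB1, JCHAIN, POU2AF1, DERL3 and FKBP11) passed the filter, 0 passed the limma threshold and their median log2 difference was 0.09. Of these 8 markers 5 were higher and 3 lower on average, and the groups overlapped for 6. The 2 without overlap were higher, as were 14.7% of all tested genes. They were XBP1, the secretory transcription factor, at 0.13 ± 0.13, and DERL3, an endoplasmic reticulum degradation gene, at 0.32 ± 0.13 (SE). Of 8 T cell markers 0 passed the filter, against 2 of 7 mature B cell markers (PAX5 and BACH2), 2 of 6 natural killer cell markers (NKG7 and PRF1) and 3 of 7 monocyte markers (CD68, S100A9 and FCN1). Below it were MS4A1, CR2, FCER2, SPIB and CIITA of the B cell list and GNLY, KLRD1, NCR1 and KLRF1 of the natural killer list. CD14, LYZ, CSF1R and S100A8 of the monocyte list were below it too. The medians of those tested B cell, natural killer and monocyte markers were 0.09, 0.09 and 0.23, and FCN1, with the most positive difference of them, had 71.1 and 66.0 in VS-5584 cultures, against 59.9 and 53.2 in controls.

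Among 18 tested genes of 22 on the list of other myeloma surface antigens and therapy targets, 0 passed the limma threshold, 9 were higher and 9 lower, and the median was -0.002. The groups did not overlap for 5 higher and 3 lower genes of the 18, against 14.7% of all tested genes higher and 29.2% lower. At an unadjusted p under 0.05 were 3 higher and 2 lower genes, against 1.49% and 8.93% of all tested genes. CCR10, a homing receptor of plasma cells, had 90.9 and 98.9 in VS-5584 cultures, against 74.6 and 62.9 in controls, a log2 difference of 0.47 ± 0.14 (SE, limma adjusted p = 0.369). TFRC, the transferrin receptor that imports iron, had 804 and 596 in VS-5584 cultures, against 988 and 965 in controls, a log2 difference of -0.50 ± 0.16 (limma adjusted p = 0.376). The other 3, named after their values were seen, were IL6ST, the signalling chain of the IL6 receptor (0.41), CD55, a complement inhibitor (0.33), and SLC3A2, the heavy chain of amino acid transporters (-0.42). GPRC5D, a target of bispecific antibodies named after its values were seen, had 2165 and 1199 in VS-5584 cultures, against 2055 and 1326 in controls. Its 2 replicates differed far more within each group than the groups did, and the log2 difference was -0.04.

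**Figure D5:**
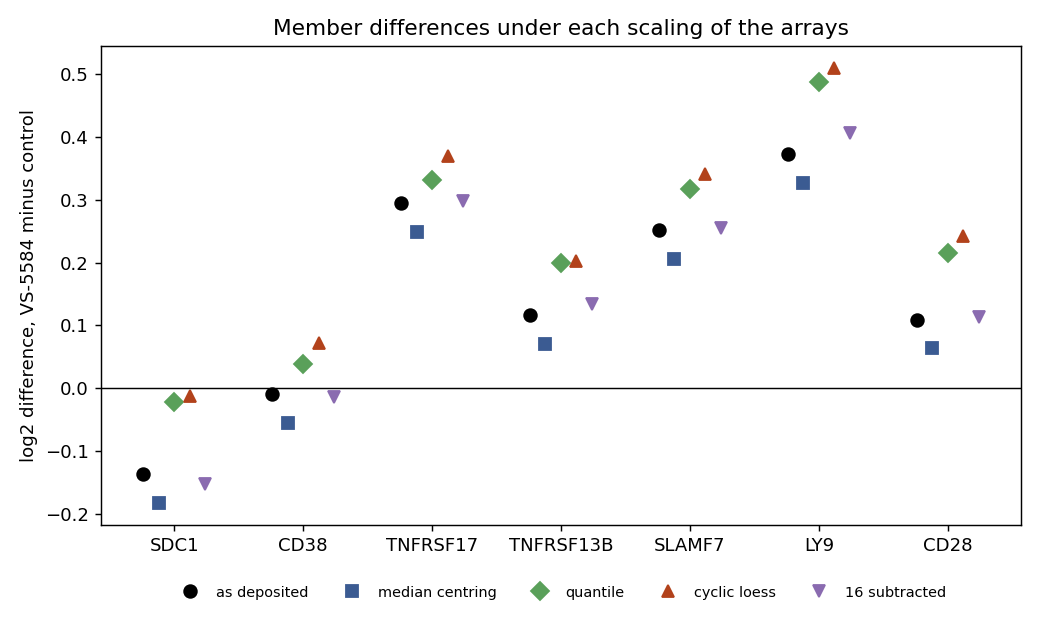
Log2 difference of the 7 tested members (vertical axis), VS-5584 minus control, with the arrays as deposited and under 4 other treatments of the values. TNFRSF17, TNFRSF13B, SLAMF7, LY9 and CD28 stay above 0 and SDC1 below it under all 5, and CD38 lies on either side.

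The scaling of the arrays moved the size of these differences, and among the members it turned the direction of CD38. Among the related lists, cyclic loess turned the medians of the SLAM list (to 0.03), the B cell surface list (to 0.02) and gamma-secretase (to 0.0077). It also turned the medians of the syndecan list (from -0.001 to 0.07) and the other myeloma surface antigens (from -0.002 to 0.04). The difference of FCRLB turned too (to -0.04). Cyclic loess and quantile normalization, which give the squeezed array the spread of the others, raised the members' median to 0.24 and 0.22, and that of all tested genes to -0.01 and -0.02. Centring each array on its median lowered the members' median to 0.070 and that of all genes to -0.11. After cyclic loess 4 members, TNFRSF17, SLAMF7, LY9 and CD28, had an unadjusted p under 0.05, where 4.36% of all tested genes were higher at that level, and 0 passed when adjusted over all genes (the smallest was 0.189, for LY9). After median centring 0 members had an unadjusted p under 0.05, where 1023 of all 11027 tested genes did. With an intensity trend in limma the 1 member under that level was TNFRSF17, which was higher, as were 2.54% of all tested genes. The unadjusted limma p of LY9 was then 0.0657.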

How the data were processed

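RNA of 4 OPM2 cultures was measured on 1 array each. Per the labels, Nugen kits made biotin-labelled cDNA from total RNA. The authors deposited 1 intensity per probe set and array (28869 probe sets). The submitters' processing notes name RMA, with no version. The intensity values are on a linear scale, and the step after RMA and any added constant are not given in the sources used here. An added constant would shrink the differences of dim genes. Without scanner files no probe set was called above background, and having 4 arrays limits the precision.

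Intensities were turned into log2 values without further normalization. Gene names came from the platform annotation (19310 probe sets with 1 gene, 1752 with several, 7807 with none listed), and 19279 were updated by gene ID from RefSeq, assembly GRCh38.p14. The probe set with the highest mean stood for each gene, and the 40% dimmest genes were left out. Groups were taken from the titles and compared in R 4.3.3 with limma 3.58.1 (moderated by eBayes, two-sided, Benjamini-Hochberg over 11027 genes, threshold 0.05). The fit was checked on simulated data. The members and related lists were chosen with earlier results of these data known. Named are all members, the 2 genes with the lowest unadjusted p in each list, and others where stated. Alternatives were the replicate block, 3 normalizations, subtracting 16, other filters, an intensity trend, averaged probe sets, no moderation and leaving out each array. Counts of members outside the control range on each VS-5584 array were added after the data were seen. Figures were drawn with matplotlib 3.10.9.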

Additional observations from a re-analysis of the deposited data

How the results depend on the processing

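The number of members past the threshold was 0 in the main comparison and in all 15 alternatives. The number of all tested genes past it was 0 in the main comparison, 437 with the replicate number as a block, 16 after cyclic loess, 2 after quantile normalization, 2 with 16 subtracted, 58 with the 60% dimmest genes left out, 80 with an intensity trend, and 2 to 2636 when each array was left out. The highest of these was without VS-5584 replicate 1, which leaves the squeezed VS-5584 replicate 2 as the lone treated array, assumed to vary like the controls. The labels do not tie same-numbered cultures together, and with 2 pairs their deviations correlate equally by construction (r = 0.155 across genes), so the block is an alternative. With it the limma adjusted p of LY9 was 0.169, the lowest over the alternatives with all 4 arrays, where it reached 0.766, and without VS-5584 replicate 1 it was 0.0598.

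The members' median log2 difference of 0.12 was 0.24 after cyclic loess, 0.22 after quantile normalization, 0.070 after median centring, and 0.080 to 0.21 when each array was left out. CD38 (-0.01) turned to 0.071 after cyclic loess, 0.039 after quantile normalization and 0.0055 without control replicate 1, and lay between -0.21 without VS-5584 replicate 1 and 0.20 without VS-5584 replicate 2. TNFRSF13B turned to -0.019 without VS-5584 replicate 2 and was 0.25 without VS-5584 replicate 1. LY9, SLAMF7, TNFRSF17 and CD28 stayed higher and SDC1 lower in the main comparison and under each alternative that can move a member's difference. Those were the normalizations, the subtracted constant and leaving out each array. The block, the other filters, the intensity trend, averaged probe sets and no moderation leave a member's difference as it was, so they cannot test its sign. Members outside the control range numbered 3 of 7 with both VS-5584 arrays, 6 without VS-5584 replicate 2 and 5 without VS-5584 replicate 1, against 43.9%, 67.9% and 85.4% of all tested genes.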
